A study of Mus musculus with 6 samples.

Results

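Slurp1 and 8 further members of the Ly6/uPAR family that lie together on mouse chromosome 15 were followed across the parental CT26 line and the ICB-resistant lines B04 and B64. The 9 genes, Slurp1, Ly6a, Ly6c1, Ly6c2, Ly6d, Ly6e, Ly6k, Lynx1 and Lypd2, were picked by name and matched by symbol among the 53801 genes of the expression tables. CT26 is a colon carcinoma line of the BALB/c mouse, and ICB is immune checkpoint blockade, antibody treatment that releases T cells from inhibition. All 3 lines descend from CT26 cells that carried a ClonTracer barcode and had been selected with puromycin, and all had been recovered from tumours grown in syngeneic mice. Parental here means the bulk population recovered that way, whereas B04 and B64 were each grown from a single cell, so each resistant line is 1 clone. Per the study, the clones were isolated after ICB treatment and not before it. The RNA came, per the study's methods, from cells cultured in complete RPMI-1640 medium, in duplicate, whereas the sample titles describe tumours. The libraries of each line are called replicates A and B, and no source used here says whether they came from separate cultures, so p-values measure the spread between these libraries, which may be technical.

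Ly6/uPAR proteins share a small, disulfide-rich fold known as the three-finger domain. Most sit on the outer face of the plasma membrane through a glycosylphosphatidylinositol (GPI) anchor, and a few, such as SLURP1, are secreted. SLURP1 and LYNX1 modulate nicotinic acetylcholine receptors, while Ly6A (Sca-1) and Ly6C are surface antigens widely used to sort stem cells and myeloid cells, and several Ly6 genes respond to interferon.

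Library totals lay between 19409204 and 23472012 expected counts. Replicates differed by more than sampling noise, with a chi-square per degree of freedom of 5.09 to 6.81 within lines and 24.83 to 38.69 between them, so no library was counted as a copy of another. Fragments, measured as gene length minus effective length, were long in both parental libraries and B04 A (271.8 to 277.3 bases) and short in B04 B and both B64 libraries (220.8 to 246.2 bases). The parental and B64 libraries thus differ in fragment length as well as in line. The leukocyte gene Ptprc had at most 1 count in any library, the epithelial genes Epcam and Cdh1 at most 2, and endothelial markers summed to at most 0.2 TPM (a transcript level scaled by length and library total). Not every marker was that low. Cd68 of the leukocyte list had 167 to 644 expected counts per library, and Krt18 of the epithelial list had 290 to 490. In bulk RNA, fewer cells of a type and less RNA per cell cannot be told apart.

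The 9 genes span 388 kb of chromosome 15 on GRCm38 (GENCODE M21 annotation). From Slurp1 at 74724318 to 74728034, they run through Lypd2 (74732247 to 74734329), Lynx1 (74747852 to 74753046), Ly6d (74762056 to 74763620), Ly6k (74796874 to 74799986), Ly6e (74955051 to 74959905), Ly6a (74994877 to 74998031) and Ly6c1 (75044018 to 75048830) to Ly6c2 (75108158 to 75111970). All lie on the minus strand except Ly6e.

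Ly6c1 and Ly6c2 are close copies, and their sequences are shown because they limit how reads can be told apart. The coding sequence of each is 393 bases in 3 exons, from 75045405 to 75048511 for Ly6c1 and from 75108546 to 75111667 for Ly6c2, and the pair is 97.7% identical with 9 differing bases. The first 300 coding bases follow, 5′ to 3′ on the minus strand, from GENCODE M21 transcripts, with the 7 bases that differ in capitals.
Ly6c1: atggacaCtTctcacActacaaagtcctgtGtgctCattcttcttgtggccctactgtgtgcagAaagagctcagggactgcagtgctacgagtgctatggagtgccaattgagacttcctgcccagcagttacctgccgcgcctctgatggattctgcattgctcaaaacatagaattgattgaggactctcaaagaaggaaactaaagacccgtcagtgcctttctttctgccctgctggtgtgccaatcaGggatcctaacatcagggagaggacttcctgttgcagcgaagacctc
Ly6c2: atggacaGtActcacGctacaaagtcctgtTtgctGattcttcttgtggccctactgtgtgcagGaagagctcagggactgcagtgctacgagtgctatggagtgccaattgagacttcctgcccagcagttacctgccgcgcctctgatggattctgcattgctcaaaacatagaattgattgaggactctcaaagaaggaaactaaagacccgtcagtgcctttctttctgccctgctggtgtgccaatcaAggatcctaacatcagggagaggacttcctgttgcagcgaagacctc
The longest stretch without a difference was 188 bases, longer than one 150-base read. Of all distinct 150-base windows of the annotated transcripts, 39 were identical between the genes, which is 2.3% of the Ly6c1 windows and 1.4% of the Ly6c2 windows. Ly6a, Ly6d, Ly6e, Lynx1 and Lypd2 shared no such window with any other gene.

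RefSeq promoter windows on GRCm38.p6 were found for only 2 of the 9 genes, Ly6c1 and Ly6c2, and both are shown. Both genes were higher in both clones than in the parental line, and only Ly6c1 was called between the clones. The 250 bases before the first listed start were chr15:75048838-75049087 for Ly6c1 and chr15:75111972-75112221 for Ly6c2, both on the minus strand and written 5′ to 3′, with any match to a searched motif in capitals.
Ly6c1: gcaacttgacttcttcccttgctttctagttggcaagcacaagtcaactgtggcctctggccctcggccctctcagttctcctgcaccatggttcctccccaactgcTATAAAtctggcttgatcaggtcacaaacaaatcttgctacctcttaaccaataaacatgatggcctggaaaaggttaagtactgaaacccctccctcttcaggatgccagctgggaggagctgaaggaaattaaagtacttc
Ly6c2: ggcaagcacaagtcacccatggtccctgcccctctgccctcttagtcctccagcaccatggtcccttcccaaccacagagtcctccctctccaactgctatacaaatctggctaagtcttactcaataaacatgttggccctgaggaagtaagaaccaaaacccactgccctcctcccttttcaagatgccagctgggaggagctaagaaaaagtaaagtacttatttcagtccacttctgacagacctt
A global alignment of the windows matched 171 bases over 290 columns (59.0%). Both strands were searched for GAAANNGAA (the core of an interferon-stimulated response element) and TTCNNNGAA (a STAT site), and neither window held one. AGAACA, a site for 1 unit of the glucocorticoid receptor dimer, was not found either. TATAAA, the sequence of a TATA box, was found once, in Ly6c1, beginning 143 bases before the start, and overlapped no other match. It is a sequence match only, and its use as a TATA box was not tested. Among 32851 windows of the same length, these motifs occurred in 7.1%, 7.0%, 16.1% and 12.4%, in the order given.

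The family covered a wide range of levels. Ly6e, a ubiquitous GPI-anchored protein known for restricting coronavirus entry, was the highest in every line, at 1216.775 ± 18.081 TPM in the parental line, 1685.48 ± 60.26 in B04 and 1485.18 ± 10.564 in B64 (mean ± SD, n = 2 throughout). Ly6a came next, at 15.825 ± 0.615, 80.345 ± 12.933 and 68.93 ± 4.95 TPM. Ly6c1 ranked below it, at 6.86 ± 0.127, 56.795 ± 7.177 and 21.36 ± 2.079 TPM. These 3 genes kept their order in all lines, with no overlap between neighbours in either library.

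The lower ranks were less firm. Lynx1 stood at 3.31 ± 0.311 TPM in the parental line, 7.68 ± 0.099 in B04 and 5.335 ± 0.177 in B64. Ly6c2 stood at 0.48 ± 0.113, 8.525 ± 1.93 and 4.11 ± 1.754 TPM, so its libraries lay below those of Lynx1 in the parental line and overlapped with them in both clones. Slurp1 had 0.2 ± 0.184, 3.195 ± 0.658 and 1.55 ± 1.202 TPM and ranked sixth. Its TPM is unstable, because the effective length assigned to it ranged from 614.46 to 2582.4 bases between libraries.

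Ly6k, a gene known from male germ cells, had no count in any library. A count of 0 allows up to 3 counts per library. Ly6d had 1 count, in B04 A, and none elsewhere. Lypd2 had expected counts of 1 and 0 (parental), 7 and 1 (B04) and 1 and 0 (B64), and its B04 to parental ratio was 8.15 with a 95% counting interval of 1.09 to 362. These 3 genes did not pass the filter on low counts, so 6 of the 9 were tested. Slurp1 and Ly6c2 passed it through their counts in the clones.

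**Figure D1:**
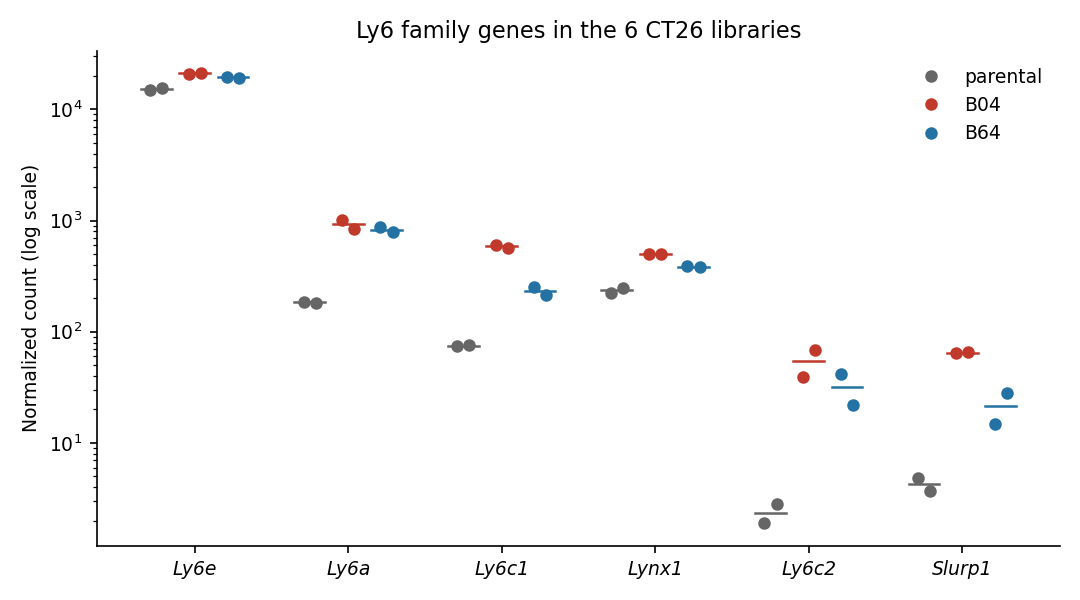
Normalized counts (vertical log axis) of the 6 tested Ly6 family genes, with points for single libraries, bars for the mean of n = 2, and the lines parental (grey), B04 (red) and B64 (blue). Both libraries of each clone lay above both parental libraries for the genes shown, and B04 and B64 overlapped for Ly6a and Ly6c2. The share of all genes that separate in this way is not given here. Slurp1 and Ly6c2 are shown because their counts in the clones passed the low-count filter.

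To ask how the family differed between a resistant clone and the parental line, B04 was compared with the parental libraries. All 6 tested genes were higher in B04, by 1.38-fold for Ly6e to 23-fold for Ly6c2 in the ratio of mean normalized counts. Across the 13218 genes tested, 11.2% were called higher and 12.9% lower at an adjusted p under 0.05 (DESeq2 Wald test with Benjamini-Hochberg adjustment). The study named Slurp1 from these libraries together with ATAC-seq, a measure of open chromatin, in which Slurp1 was also more accessible in B04. Slurp1 was thus not chosen independently of its direction. The other members were also chosen with earlier results of these data known. Slurp1 and Ly6c2 count among the 6 only through their counts in the clones.

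Slurp1 encodes a secreted ligand of nicotinic receptors that is best known from the epidermis. Normalized counts were 4.8 in parental A and 3.7 in parental B, against 63.8 and 66.2 for the B04 pair and 14.7 and 28.4 for the B64 pair. The lines did not overlap, with B04 highest and the parental line lowest. The log2 fold change of B04 over the parental line was 3.93 (SE 0.70, adjusted p = 3.28e-07 in DESeq2). These are small numbers, since the parental libraries held 5.02 and 4 expected counts, and the ratio of 15.3 had a 95% counting interval of 7.81 to 34.1.

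Slurp1 also shares bases with Them6, a gene on the opposite strand. The genes overlap by 322 exonic bases, all in the 2859-base Slurp1 transcript and none in the 567-base one, and 6.1% of the 150-base windows of Slurp1 also occur in Them6. The library protocol as described does not say that strand was kept, and without strand, reads from the overlap cannot be assigned with certainty. Them6 itself was higher in B04, at 1049.8 and 1041.3 normalized counts against 376.8 and 405 in the parental libraries (log2 fold change 1.42, SE 0.13, adjusted p = 5.73e-27, DESeq2). It rose by less than Slurp1.

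Slurp1 therefore made up a larger part of the counts of both genes in B04. Its share was 1.25% in parental A and 0.915% in parental B (95% Wilson intervals 0.535% to 2.89% and 0.357% to 2.33%), and 5.73% in B04 A and 5.97% in B04 B (4.56% to 7.18% and 4.71% to 7.54%). In B64 it was 3.14% and 5.31% (1.84% to 5.3% and 3.68% to 7.62%). The B04 intervals lay above both parental intervals, and these intervals cover counting error only. RSEM assigned the short transcript, which does not overlap Them6, 80.4% (parental A), 0.0% (parental B), 59.0% (B04 A), 72.2% (B04 B), 66.2% (B64 A) and 87.2% (B64 B) of Slurp1 expression.

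Ly6a encodes Sca-1, an antigen of stem and activated lymphoid cells. Parental A and B had 185.1 and 182.4 normalized counts, B04 A and B had 1006.9 and 841.8, and B64 A and B had 877.8 and 781.2. Both clones lay far above the parental line and overlapped with each other. The log2 fold change in B04 was 2.33 (SE 0.15, adjusted p = 7.69e-54, DESeq2).

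Ly6c1 and Ly6c2 together encode the Ly6C antigen of monocytes and T cells. Ly6c1 stood at 74.4 and 75.8 normalized counts in the parental pair, at 607.4 and 571 in the B04 pair and at 252.6 and 213.4 in the B64 pair. The 3 lines were separate, in the order B04, B64, parental. Its log2 fold change in B04 was 2.97 (SE 0.20, adjusted p = 1.75e-47, DESeq2).

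For Ly6c2 the normalized counts of replicates A and B were 1.9 and 2.8 (parental), 39.2 and 69.2 (B04) and 41.9 and 22.1 (B64). The parental line was again lowest and the clones overlapped. The log2 fold change in B04 was 4.52 (SE 0.84, adjusted p = 1.53e-06, DESeq2), and the ratio of summed counts was 22.6 with a counting interval of 9.4 to 71. With effective lengths as an offset, the log2 fold change was 4.14 (adjusted p = 5.36e-05, DESeq2).

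Expected counts of Ly6c1 and Ly6c2 were fractional in every library, which is how RSEM divides reads that match both genes. Ly6c2 took 2.5% and 3.57% of the joint counts of parental A and B (95% Wilson intervals 0.69% to 8.66% and 1.22% to 9.98%), 6.06% and 10.81% of those of B04 A and B, and 14.23% and 9.38% of those of B64 A and B. The intervals of B04 A (4.53% to 8.07%), B04 B (8.62% to 13.48%) and B64 B (6.21% to 13.91%) overlapped both parental intervals, and that of B64 A (10.5% to 19%) lay above both. Overlap of intervals does not show an equal split, and the difference in split was not tested. Their sum does not depend on the split. With both genes added before the fit, the log2 fold change was 3.05 in B04 and 1.77 in B64 against the parental line (adjusted p = 6.39e-52 and 2.87e-16, DESeq2).

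**Figure D2:**
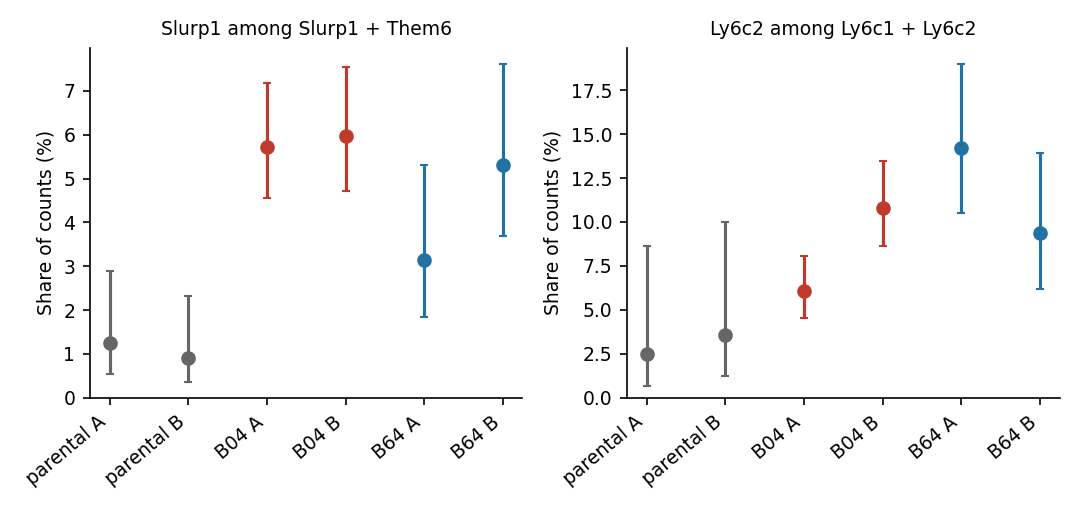
Share of counts, in percent, that fell to Slurp1 among Slurp1 and Them6 (left) and to Ly6c2 among Ly6c1 and Ly6c2 (right), per library, with 95% Wilson intervals. Slurp1 took 0.915% to 1.25% in the parental libraries and 3.14% to 5.97% in the clones, and Ly6c2 took 2.5% to 3.57% and 6.06% to 14.23%.

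Ly6e, the abundant member, counted 15014.2 and 15420.5 normalized counts for parental A and B, 20873.2 and 21091.4 for B04 A and B, and 19678.8 and 19040 for B64 A and B. The lines were separate, although the change was the smallest among the 6 tested genes. In B04 the log2 fold change was 0.46 (SE 0.05, adjusted p = 3.06e-19, DESeq2). Counts of Ly6e, Ly6a and Lynx1 were whole in all 6 libraries, unlike those of Slurp1, Ly6c1 and Ly6c2.

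Lynx1, a membrane-anchored brake on nicotinic receptors in neurons, reached 224.2 and 246.9 normalized counts in parental A and B, 501.6 and 499.8 in the B04 pair, and 391.9 and 379.5 in the B64 pair. The order was again B04, B64, parental, without overlap. The log2 fold change in B04 was 1.09 (SE 0.16, adjusted p = 2.35e-10, DESeq2). Within the long-fragment libraries alone, B04 A exceeded the parental mean by 3.63 for Slurp1, 2.45 for Ly6a, 3.0 for Ly6c1, 3.60 for Ly6c2, 0.46 for Ly6e and 1.09 for Lynx1 on the log2(normalized count + 1) scale.

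The second clone, B64, was compared with the same parental libraries. Again 6 of 6 tested genes were higher, where 8.87% of all 13218 genes were called higher and 7.45% lower. The limits on that count named for B04 hold here too. Ly6a rose 4.51-fold (log2 fold change 2.17, SE 0.15, adjusted p = 4.94e-46, DESeq2) and Ly6c1 rose 3.1-fold (1.63, SE 0.21, adjusted p = 2.98e-13). Ly6c2 rose 13.6-fold, with a log2 fold change of 3.76 (SE 0.85, adjusted p = 0.000187). The effective length assigned to Ly6c2 was 261.26 and 261.88 bases in the parental libraries but 409.95 and 391.95 in B64. With effective lengths as an offset, its log2 fold change was 3.15 (adjusted p = 0.00577, DESeq2). Lynx1 and Ly6e changed less, by 1.64-fold and 1.27-fold (log2 fold changes 0.71 and 0.35, SE 0.16 and 0.05, adjusted p = 0.000182 and 9.02e-11).

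Slurp1 had the weakest test in B64. Its log2 fold change was 2.35 (SE 0.72, adjusted p = 0.0102, DESeq2), and the ratio of 5.13 had a counting interval of 2.45 to 12. The call was lost without parental A (log2 fold change 2.53, adjusted p = 0.104), without parental B (2.18, adjusted p = 0.128) and without B64 B (1.79, adjusted p = 0.280), all in DESeq2. Such a fit leaves 1 library in a line, which is then assumed to vary like the other lines. With fragment-length class as a block, which only the B04 libraries can separate from line, Slurp1, Ly6c2 and Lynx1 no longer passed the threshold (adjusted p = 0.624, 0.390 and 0.405 in DESeq2), at log2 fold changes of 2.29, 2.94 and 0.72, and Ly6a, Ly6c1 and Ly6e did pass. Under that block 2.64% of all genes were called, in either direction, against 16.3% without it.

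**Figure D3:**
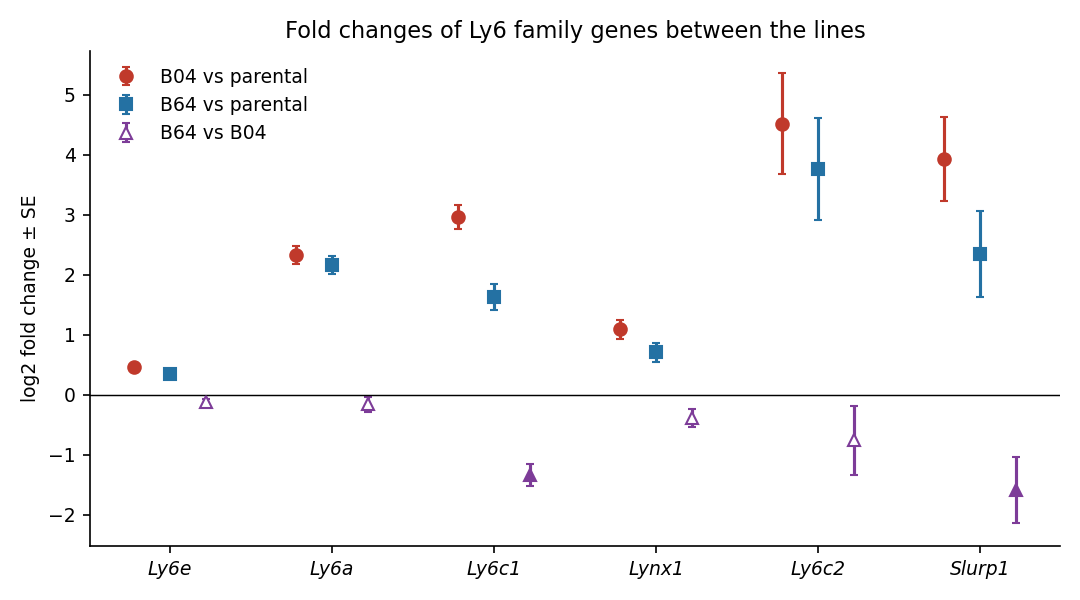
Log2 fold change (vertical axis, bars are SE) of the 6 tested genes in B04 against parental (circles), B64 against parental (squares) and B64 against B04 (triangles), with filled symbols for an adjusted p under 0.05. All 12 values against the parental line are above 0 and filled, and of the 6 values between the clones, all below 0, those of Ly6c1 and Slurp1 are filled.

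Both comparisons above share the parental libraries, so the clones were compared directly. Ly6c1 and Slurp1 were lower in B64 than in B04, and the other 4 tested genes did not pass the threshold. Of 12855 genes tested, 13.1% were higher and 11.1% lower in B64. Ly6c1 had a log2 fold change of -1.34 (SE 0.18, adjusted p = 1.82e-12, DESeq2), and Slurp1 of -1.59 (SE 0.55, adjusted p = 0.0202). The Slurp1 call was lost without B04 A (log2 fold change -1.61, adjusted p = 0.233), without B04 B (-1.56, adjusted p = 0.230) and without B64 A (-1.19, adjusted p = 0.319), where the spread again came from the other lines.

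Ly6a differed little between the clones, with a log2 fold change of -0.16 and a 95% interval of -0.42 to 0.10 (adjusted p = 0.457, DESeq2). For Ly6c2 the value was -0.76 with a wide interval, from -1.89 to 0.36 (adjusted p = 0.39). Lynx1 (-0.38, SE 0.15, adjusted p = 0.0587) and Ly6e (-0.12, SE 0.05, adjusted p = 0.0675) were lower in both B64 libraries than in both B04 libraries without reaching the threshold. Among the short-fragment libraries alone, B64 differed from B04 B by -1.64 for Slurp1, -1.29 for Ly6c1, -1.16 for Ly6c2, -0.37 for Lynx1, -0.12 for Ly6e and -0.02 for Ly6a on the log2(normalized count + 1) scale.

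Genes within 1 Mb of the family were measured next, since all 9 members lie within one stretch of chromosome 15. Of 86 other annotated genes that start within 1 Mb of the members, 26 were tested. In B04, 11 of the 26 were called higher and 0 lower than in the parental line, where 11.2% and 12.9% of all genes were, with a median log2 fold change of 0.32. Of those 11, only Them6 lay beside the family. The others started 888.6 to 1392.2 kb from the Slurp1 start, past Ly6c2 at 383.9 kb. In B64, 2 were higher and 2 lower, where 8.87% and 7.45% of all genes were, with a median of 0.09. In B64 against B04, 0 were higher and 9 lower, where 13.1% and 11.1% of all genes were, with a median of -0.24. DESeq2 was the test, and counts of 0 lower in B04 and 0 higher in B64 against B04 stayed 0 at an unadjusted p under 0.05 and in edgeR, which called 13 of 25 higher in B04 and 10 lower in B64 against B04.

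Them6, next to Slurp1, was the only tested gene that overlaps a member, and its B64 values of 454.2 and 505.7 normalized counts lay just above the parental ones (log2 fold change 0.30, SE 0.13, adjusted p = 0.115, DESeq2). Its difference between B64 and B04 was -1.12 (SE 0.13, adjusted p = 2.84e-17). Jrk, a little farther out, had a log2 fold change of 0.42 in B04 (SE 0.17, adjusted p = 0.0602). Slurp2 and Cyp11b1 had no count in any library, and Psca, Ly6i and the long noncoding D730001G18Rik had normalized counts of at most 3.6.

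**Figure D4:**
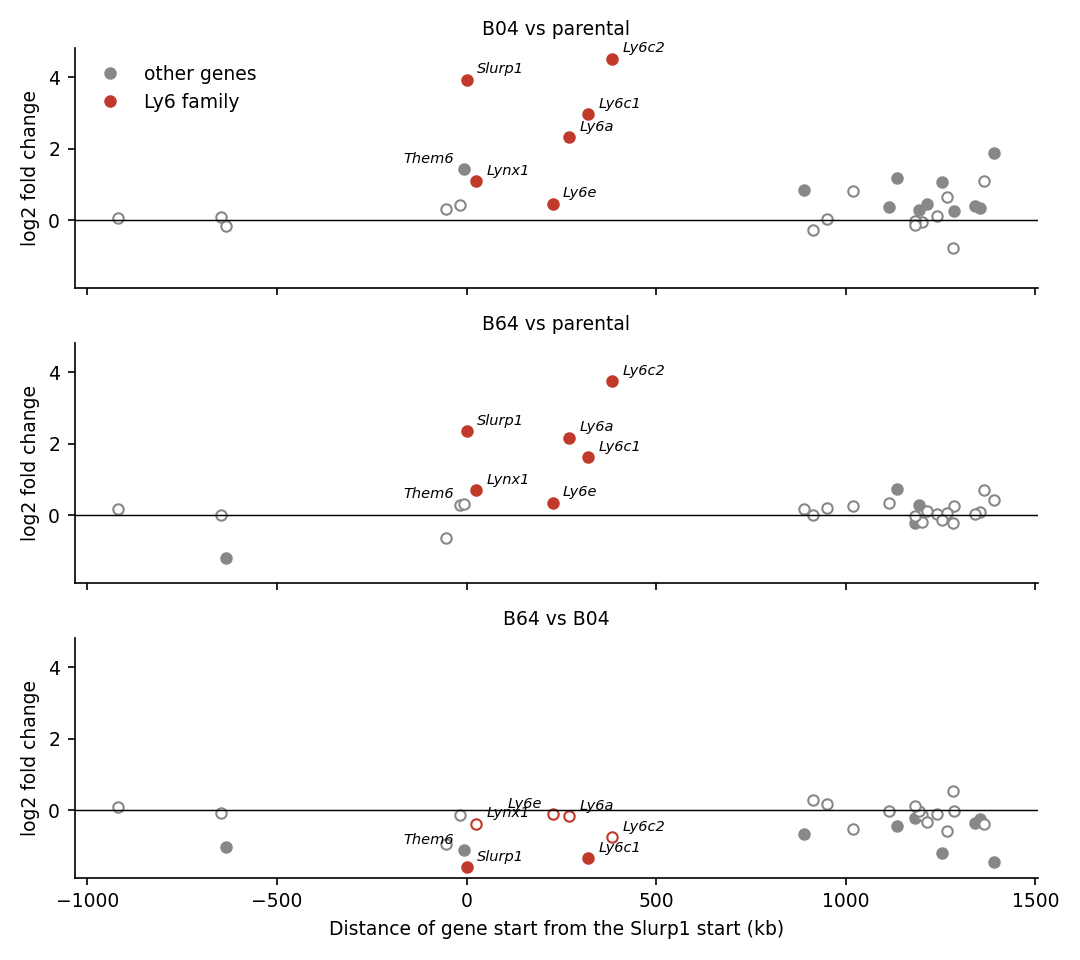
Log2 fold change of tested genes within 1 Mb of the Ly6 family members (vertical axis) against the distance of the gene start from the Slurp1 start in kb, with family members in red, other genes in grey and filled points for an adjusted p under 0.05. In B04 against parental, 11 of 26 other genes are filled and above 0, and all 6 family members are. Among these 11, only Them6 lies beside the family.

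Beyond these 9, 10 further family members of the same cluster were in the tables, and none passed the low-count filter. Of 24 Ly6/uPAR genes on other chromosomes, 4 were tested, with 1 higher and 1 lower in B04 and 1 higher in B64. The shares of all genes called, given with each comparison above, are the reference for this list and those that follow. Lypd5, a GPI-anchored member, averaged 179 normalized counts in the parental line, 463.7 in B04 and 313.9 in B64 (log2 fold changes 1.37 and 0.81 against the parental line, SE 0.18 for each, adjusted p = 3.1e-13 and 0.000122, DESeq2). It followed the order B04, B64, parental, and B64 was below B04 (-0.56, SE 0.17, adjusted p = 0.00602).

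Plaur, the urokinase receptor that gives the family the uPAR in its name, moved the other way. It averaged 2988 normalized counts in the parental line, 1234.2 in B04 and 2620.2 in B64, and its log2 fold change in B04 was -1.28 (SE 0.09, adjusted p = 4.53e-47, DESeq2). B64 exceeded B04 by 1.09 (SE 0.09, adjusted p = 8.66e-34). Plau, urokinase itself, had at most 2 counts per library.

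Nicotinic receptor subunits, the targets of SLURP1 and LYNX1, were mostly absent. Of 16 subunit genes, 9 had no count in any library, among them Chrna7, the receptor through which SLURP1 is known to act, and 4 were tested. Chrnb1, the muscle beta subunit, was lower in both clones, with log2 fold changes of -0.43 in B04 and -0.39 in B64 (SE 0.12 for each, adjusted p = 0.00259 and 0.01, DESeq2). Chrna1, the muscle alpha subunit, was higher in B64 than in B04 (1.49, SE 0.55, adjusted p = 0.0297). No subunit was called higher in either clone against the parental line by DESeq2, while at an unadjusted p under 0.05 none was higher in B04 and 1 in B64, and edgeR called the same numbers.

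Genes that make and attach the GPI anchor had median log2 fold changes near the 0 of all genes. The medians were 0.09 in B04, -0.03 in B64 and -0.06 in B64 against B04. Of 27 tested, 2 were higher and 1 lower in B04, where 11.2% and 12.9% of all genes were. In B64, 2 were higher and 2 lower, beside 8.87% and 7.45%. Against B04, 1 was higher and 2 lower in B64, beside 13.1% and 11.1%. In edgeR, 5 were higher and 3 lower in B04, 4 and 3 in B64, and 1 and 4 in B64 against B04. Of all genes, edgeR called 34.6%, 24.6% and 34% in either direction. Dpm1, a subunit of the enzyme that makes the mannose donor, rose in both clones (log2 fold changes 0.33 and 0.48, SE 0.10 for each, adjusted p = 0.00421 and 1.73e-05, DESeq2). Its partner subunit Dpm3 fell by 0.55 on the log2 scale in B64 (SE 0.15, adjusted p = 0.00337).

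Interferon signalling genes, known regulators of several Ly6 genes, were read beside the family. Of 14 tested, 1 was higher and 4 lower in B04, where 11.2% and 12.9% of all genes were (median -0.04). In B64, 4 were higher and 0 lower, where 8.87% and 7.45% of all genes were (median 0.17). In B64 against B04, 6 were higher and 1 lower, where 13.1% and 11.1% of all genes were (median 0.22). The count of 0 lower in B64 also held at an unadjusted p under 0.05 and in edgeR, which called 4 higher. Irf1, a factor downstream of interferon, was the gene higher in B04 (0.73, SE 0.15, adjusted p = 1.17e-05, DESeq2). Usp18, a feedback inhibitor of the type I receptor, had a log2 fold change of -1.15 in B04 and 0.56 in B64 (SE 0.11 for each, adjusted p = 6.36e-23 and 5.06e-06, DESeq2). Irf7, the factor that amplifies type I interferon, changed by -0.41 and 1.21 (SE 0.09 for each, adjusted p = 0.000139 and 1.89e-38).

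Among 8 tested genes of the glucocorticoid receptor and its classic targets, a list that overlaps with genes the study chose on these libraries, 3 were higher in B04 and 1 in B64, with none lower, and 2 were higher and 2 lower in B64 against B04 (medians 0.21, 0.14 and -0.20). Of all genes, 11.2% were called higher and 12.9% lower in B04, and 8.87% and 7.45% in B64. In B64 against B04 the shares were 13.1% and 11.1%. In edgeR and at an unadjusted p under 0.05 alike, 1 of the 8 was lower in B04 and 0 in B64. Nr3c1, the receptor, had log2 fold changes of 0.52 in B04 and 0.21 in B64 (SE 0.07 for each, adjusted p = 6.81e-11 and 0.0337, DESeq2). Fkbp5, a co-chaperone induced by the receptor, rose by 0.47 in B04 (SE 0.08, adjusted p = 9.95e-08) and was lower in B64 than in B04 (-0.53, SE 0.08, adjusted p = 1.19e-09). Per1 (0.66, SE 0.14, adjusted p = 2.34e-05) was higher in B64 than in B04.

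SLURP1 is a product of squamous epithelium and Ly6C of myeloid cells, so markers of both were read beside them. Of 17 keratinocyte and squamous genes, 5 were tested, with 2 higher in B04, none called in B64 (1 higher at an unadjusted p under 0.05 and 1 higher in edgeR, beside 0 in DESeq2) and 2 lower in B64 against B04. Klf4, a factor of barrier epithelium, rose by 0.52 on the log2 scale in B04 (SE 0.07, adjusted p = 5.55e-13, DESeq2). Trp63, a factor of basal epithelium with a mean of 8.4 normalized counts, named after its value was seen, was the other gene higher in B04 (3.21, SE 1.14, adjusted p = 0.0244). Of the 17 genes, 6 had no count in any library, among them Krt1, Ivl, Lor, Sprr1a and Sprr1b, and 10 had at most 3 counts in every library. The summed level of the list was 61.1 to 69.42 TPM in the parental line, 95.65 to 100.01 in B04 and 73.91 to 80.63 in B64. That sum is carried mainly by Klf4, which averaged 3458 normalized counts, beside 95.2 for Krt10 and at most 8.4 for any other listed gene.

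Of 5 neutrophil and monocyte genes, S100a9 had no count in any library and only Plac8 was tested, which rose by 0.60 in B04 (SE 0.09, adjusted p = 5.02e-09, DESeq2). That list summed to 115.27 to 119.97 TPM in the parental line, 169.71 to 188.25 in B04 and 118.85 to 134.98 in B64. Nearly all of it was Plac8, which averaged 1323.2 normalized counts, beside at most 1.6 for any other gene of the list. The 10 leukocyte markers together gave 10.52 to 12.23 TPM outside B64 and 36.67 to 40.29 TPM in it, through Cd68, a lysosomal protein (log2 fold change 1.94 in B64, SE 0.17, adjusted p = 1.79e-27). Cd3e had no count in any library. The epithelial, endothelial, fibroblast and erythroid lists had 2, 1, 3 and 1 tested genes, and of these Krt18, a simple-epithelium keratin, was higher in B64 (0.73, SE 0.16, adjusted p = 0.000157) and Pdgfra, a fibroblast receptor, was lower in B04 (-0.87, SE 0.26, adjusted p = 0.00517). Pi16, also a fibroblast gene, was higher in B64 (1.44, SE 0.31, adjusted p = 9.25e-05), and Dcn, with a mean of 9.3 normalized counts and named after its value was seen, was lower in B04 (-5.62, SE 1.67, adjusted p = 0.00502). The part of such cells in the Ly6 values was not tested.

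As a description of likeness, every gene with a mean of at least 10 normalized counts was ranked by Pearson correlation with Slurp1 and with Ly6e over the 6 libraries, on log2(normalized count + 1). Among 11995 genes, the closest to Slurp1 were Cyp2c55 (r = 0.997), Aldh7a1 (0.9962), Scd2 (0.9955), Spon2 (0.9939) and Rapgefl1 (0.9932). Closest to Ly6e were Mmp28 (0.9991), Gsn (0.9955), Pttg1 (0.9953), Kank1 (0.9953) and Wdyhv1 (0.9949). With 3 lines in duplicate such values come easily, since 246 genes exceeded 0.95 for Slurp1 and 241 for Ly6e. The 6 points share their lines and fragment-length classes.

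**Figure D5:**
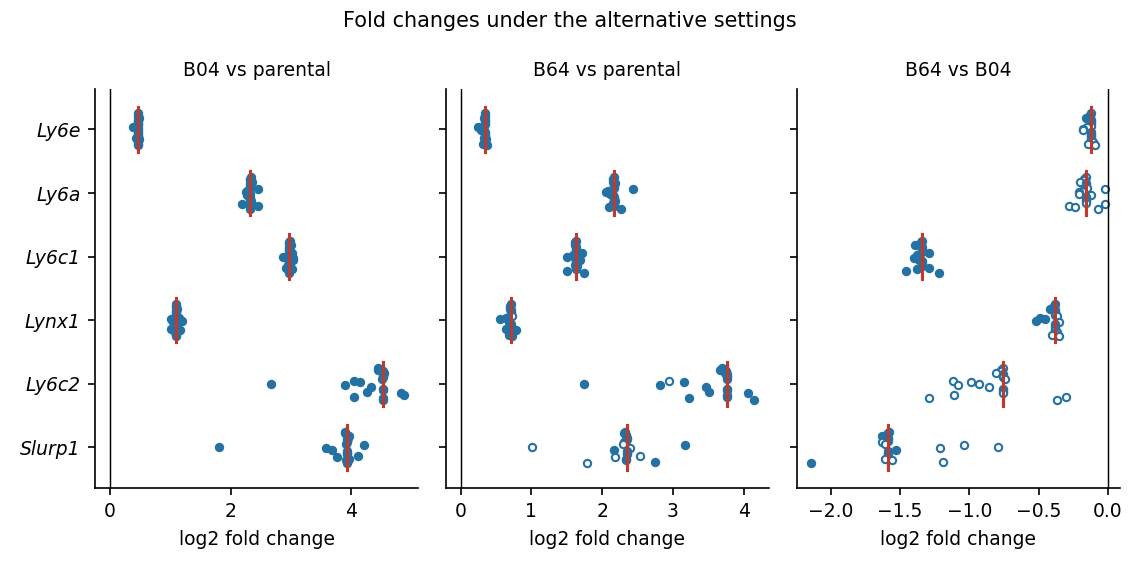
Log2 fold changes of the 6 tested genes (horizontal axis) under the alternative settings (blue points, filled where called) beside the main DESeq2 value (red line), for each comparison. All points keep the sign of the main value, and those of Slurp1 and Ly6c2 spread most.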

How the data were processed

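Polyadenylated RNA of the 3 CT26 lines was sequenced as paired 150-base reads. The authors aligned reads to mm10 with STAR and quantified genes with RSEM. The deposited expected counts are estimates in which reads that match several genes are divided among them, and the deposited TPM values are scaled by effective length. Gene length and effective length come from the same deposited tables, and FPKM was not used. Strand setting and annotation release are not given in the sources used here. Of 53801 identifiers, 53620 (99.7%) matched a GENCODE M21 symbol.

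Groups came from the sample titles. Expected counts were rounded and fitted with DESeq2 (version 1.42.0, R 4.3.3) over all 6 libraries with line as the only term, without shrinkage, and Wald p-values were adjusted over all genes by the Benjamini-Hochberg method (threshold 0.05). Normalized counts were divided by DESeq2 size factors. Alternatives used edgeR (version 4.0.16) quasi-likelihood tests, limma (version 3.58.1) on log2(TPM + 1) and log2(TPM + 0.1), other scalings, filters, blocks and libraries. The 9 genes, the other gene lists and the fragment-length alternatives were chosen with earlier results of these data known. All 9 genes are named. From other lists, at most 3 called genes with a mean of at least 10 were named, beside fixed genes such as Nr3c1, Chrna7 and Slurp2, and among neighbours only those next to a member. Some genes that this rule would name are not reported here. Fragment length was called long above 260 bases.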

Additional observations from a re-analysis of the deposited data

Results flagged for a closer look

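The effects of the clones against the parental line differed by the direct test for 2 genes. Slurp1 was lower in B64 than in B04, with a log2 fold change of -1.59 (adjusted p = 0.0202, DESeq2), and both B64 libraries lay below both B04 libraries. Ly6c1 was lower by a log2 fold change of -1.34 (adjusted p = 1.82e-12, DESeq2), again without overlap. Groups of 2 libraries are too small for a test of single outlying libraries.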

How the results depend on the processing

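In 22 alternative settings no tested gene changed direction in any comparison. In B04 against parental, all 6 genes were called except with a minimum of 2-fold, where Ly6e was lost, and with Ly6c1 and Ly6c2 summed, where they count as 1. In B64 against parental, 3 genes were called with fragment-length class as a block (2.64% of 12855 genes, against 16.3% without it), and 5 to 6 with one library left out. The log2 fold changes of the 3 lost genes under that block were 2.29 (Slurp1), 2.94 (Ly6c2) and 0.72 (Lynx1). Slurp1 was also lost on the compared lines only (adjusted p = 0.081, DESeq2) and on TPM (0.122 and 0.0819, limma). In B64 against B04, 4 genes were called with TMM size factors and 4 with size factors from totals, where Lynx1 and Ly6e joined, 1 with fragment-length class as a block, 1 at an adjusted p under 0.01, and 1 to 2 with one library left out. Across the 22 settings, Lynx1 was called in 8 and Ly6e in 3 for B64 against B04. Slurp1 was lost there with effective lengths as an offset (adjusted p = 0.392, DESeq2) and on TPM (0.169 and 0.274, limma). The cause was not tested. Its log2 fold change ranged from 1.81 to 4.21 in B04, 1.01 to 3.17 in B64 and -2.14 to -0.79 between the clones.

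Same-lettered libraries deviated together with correlations of 0.11, 0.01 and -0.05 over 11996 genes, so the letters were not taken to pair them. With the letter as a replicate block, 6, 6 and 1 genes were called, and Slurp1 in B64 against B04 had an adjusted p of 0.054 (DESeq2). On TPM, the share of higher calls among all genes rose from 46.4% to 67.3% in B04 and from 54.3% to 68.2% in B64 with a pseudocount of 1. Depth limits Slurp1, Ly6c2 and Lypd2, which had at most 5.02 expected counts in a parental library.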
